A study of Homo sapiens with 12 samples.

Results

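A set of 10 genes of macrophage iron storage and transport was examined: FTH1, FTL, TFRC, SLC40A1, SLC11A1, SLC11A2, IREB2, ACO1, NCOA4 and PCBP1. The rule took every probe set (a group of short array probes read out as 1 value) whose symbol in the platform's gene table is 1 of these 10 names. It found 31 probe sets for 8 of the 10 genes, out of 18132 genes with a probe set of 1 symbol. FTH1, the ferritin heavy chain, and IREB2, which encodes iron regulatory protein 2, have no probe set in that table and are not analysed here.

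The arrays measured total RNA of THP-1 cells. This established line, from a human monocytic leukaemia, becomes macrophage-like under the phorbol ester PMA, given at 100 ng/ml for 48 hours. There were 4 groups of 3 arrays. The temperature experiment compared differentiated cells kept at 37 °C with cells kept at 40 °C for up to 24 hours; the labels name several harvest times and do not say which one these arrays hold. In the inhibitor experiment, cells labelled siThermomir were compared with cells labelled WT and control. Per the labels' protocols, cells of that experiment were differentiated at 40 °C and nucleofected with a hairpin inhibitor of a microRNA. A vector for GFP went in with it, and fluorescent cells were collected by sorting after 24 hours. The protocol names inhibitors of several microRNAs, ThermoMIR-1 among them, and a non-human control. It does not say whether the WT cells received that control, nor which inhibitor the siThermomir label stands for. Whether replicates came from separate cultures is not labelled, and the p-values reflect variation among these 12 arrays alone, possibly of technical origin.

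Macrophages take up iron from transferrin and from engulfed red cells, hold it in ferritin, and return it to the blood through ferroportin. When iron in the cytosol is scarce, iron regulatory proteins bind hairpins called iron-responsive elements. Binding holds back translation of ferritin and ferroportin mRNA and protects transferrin receptor mRNA from decay. Inflammation shifts macrophages toward keeping iron, which withholds it from microbes.

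Part of the iron-responsive element of FTL, the ferritin light chain, is shown because this element is the site through which iron controls this mRNA. The stretch below lies at chr19:48965338-48965358, plus strand, in RefSeq's GRCh38.p14, at the end of the window of 50 bases after the RefSeq start site. The stretch stops where that window stops. Capitals mark the letters CAGTGN of the hairpin loop, which begin at base 39 of the transcript. Of 35116 RefSeq promoter windows, 6.36% hold these letters on the transcript strand within the first 50 bases after the start. Among other members, the letters also lie at base 15 of SLC11A1 and at base 27 from 1 NCOA4 start site. A hairpin there was not tested.
FTL element: ttgcttcaaCAGTGTttggac

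The 250 bases before the start sites of FTL, TFRC, SLC11A1 and SLC11A2 are shown because transcripts of the last 3 changed in both comparisons, and FTL is the storage gene measured. They are FTL at chr19:48965059-48965308 (plus strand), TFRC at chr3:196082091-196082340 (minus strand), SLC11A1 at chr2:218382023-218382272 (plus strand) and 1 of the 4 RefSeq start sites of SLC11A2 at chr12:51028887-51029136 (minus strand), all from RefSeq's GRCh38.p14 and written 5′ to 3′ along the gene. Capitals mark matches, on both strands, to GAANNTTC and TTCNNGAA (paired half-sites as bound by heat shock factors), TGACNNNGC (the core bound by NRF2), ACGTG (the core bound by hypoxia-inducible factors), CCAAT, and runs of at least 5 TG repeats. ACO1 was also called in both comparisons, but its window held no match to these motifs and is not shown.
FTL: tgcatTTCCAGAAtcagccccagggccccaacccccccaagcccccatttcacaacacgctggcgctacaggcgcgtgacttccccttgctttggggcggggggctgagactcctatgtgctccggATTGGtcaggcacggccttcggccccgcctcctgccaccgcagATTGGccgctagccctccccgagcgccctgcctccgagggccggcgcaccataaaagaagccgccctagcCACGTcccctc
TFRC: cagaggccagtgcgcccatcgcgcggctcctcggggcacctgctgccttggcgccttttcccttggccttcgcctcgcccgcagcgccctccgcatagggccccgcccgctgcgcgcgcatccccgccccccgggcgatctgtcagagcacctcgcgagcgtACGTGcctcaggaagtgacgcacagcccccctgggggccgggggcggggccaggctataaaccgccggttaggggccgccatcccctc
SLC11A1: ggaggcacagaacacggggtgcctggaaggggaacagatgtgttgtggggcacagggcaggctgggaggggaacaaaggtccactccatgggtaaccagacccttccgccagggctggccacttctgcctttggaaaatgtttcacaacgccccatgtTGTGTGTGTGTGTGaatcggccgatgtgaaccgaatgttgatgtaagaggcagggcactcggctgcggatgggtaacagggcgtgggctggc
SLC11A2: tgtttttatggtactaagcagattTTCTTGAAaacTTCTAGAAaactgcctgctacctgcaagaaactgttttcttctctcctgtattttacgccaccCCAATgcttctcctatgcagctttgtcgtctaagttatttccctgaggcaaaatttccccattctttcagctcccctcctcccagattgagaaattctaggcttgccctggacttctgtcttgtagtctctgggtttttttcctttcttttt

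FTL held 1 TTCNNGAA, 2 CCAAT boxes on the other strand and 1 ACGTG on the other strand. TFRC held 1 ACGTG, and SLC11A1 held only its run of 7 TG repeats. The SLC11A2 window shown held 2 matches to TTCNNGAA and 1 CCAAT box, and was chosen for display because of the former. The windows at the other 3 SLC11A2 start sites held CCAAT boxes and no match to the other motifs searched. Over all 35116 RefSeq promoters, TTCNNGAA was found in 6.62% of the 250-base windows, GAANNTTC in 5.78%, TGACNNNGC in 10.9%, ACGTG in 18.5%, CCAAT in 32.0% and a TG run in 0.92%. Such matches describe letters in these windows only, and the probe sets do not tell which SLC11A2 start site was used.

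Transcript levels are the deposited log2 values, so a difference of 1 is a 2-fold change. Each gene is represented by its brightest probe set, and a change is called where limma's Benjamini-Hochberg adjusted p is under 0.05. All 8 genes passed the filter on low signal. Array medians were alike, and arrays of 1 group correlated at r = 0.9939 to 0.9984 over probe sets. The number of arrays limits the precision. Macrophage markers ranged widely: CD68 averaged 10.79 to 12.42 and CSF1R 10.09 to 10.64 over the groups. SPI1 (5.42 to 6.12), CD163 (5.30 to 6.27) and MARCO (4.95 to 5.97) lay around the array medians of 5.72 to 5.87. MRC1, whose highest group mean was 3.30, lay under the filter's signal of 4.48. The remaining markers on the array had higher group means than these faint ones. Markers of erythroid cells were checked because the growth protocol also names K562, an erythroleukaemia line. Of the 7 on the array, 3 (HBE1, HBZ, KLF1) lay under the filter, and none of the other 4 was called in either comparison.

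At 40 °C, transcripts among the 8 genes moved in both directions. SLC11A1, ACO1 and PCBP1 were higher, by 1.29-fold, 1.32-fold and 1.16-fold, and SLC11A2 and TFRC were lower, by 1.60-fold and 1.38-fold. FTL, NCOA4 and SLC40A1 were not called. Thus 3 of 8 genes rose and 2 fell, where 21.6% of the 13909 genes tested rose and 17.7% fell. Groups did not overlap for 7 of the 8, against 49.5% of all genes tested. The median size of the difference was 0.30 for the 8 genes and 0.13 over all genes tested.

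With the inhibitor, SLC11A1 was 2.04-fold, ACO1 1.62-fold and TFRC 1.16-fold lower than in controls, and SLC11A2 was 1.25-fold higher. The other 4 genes were not called. Over all genes tested, 25.7% were called higher and 19.6% lower, and groups did not overlap for 54.1%, against 5 of the 8 iron genes. The median size of the difference was 0.13 for the 8 genes, below the 0.22 over all genes tested. SLC11A1, SLC11A2 and ACO1 were called in opposite directions in the 2 experiments, which holds for 8.99% of all genes tested. TFRC was called lower in both, and 13.8% of all genes were called in the same direction in both.

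**Figure D1:**
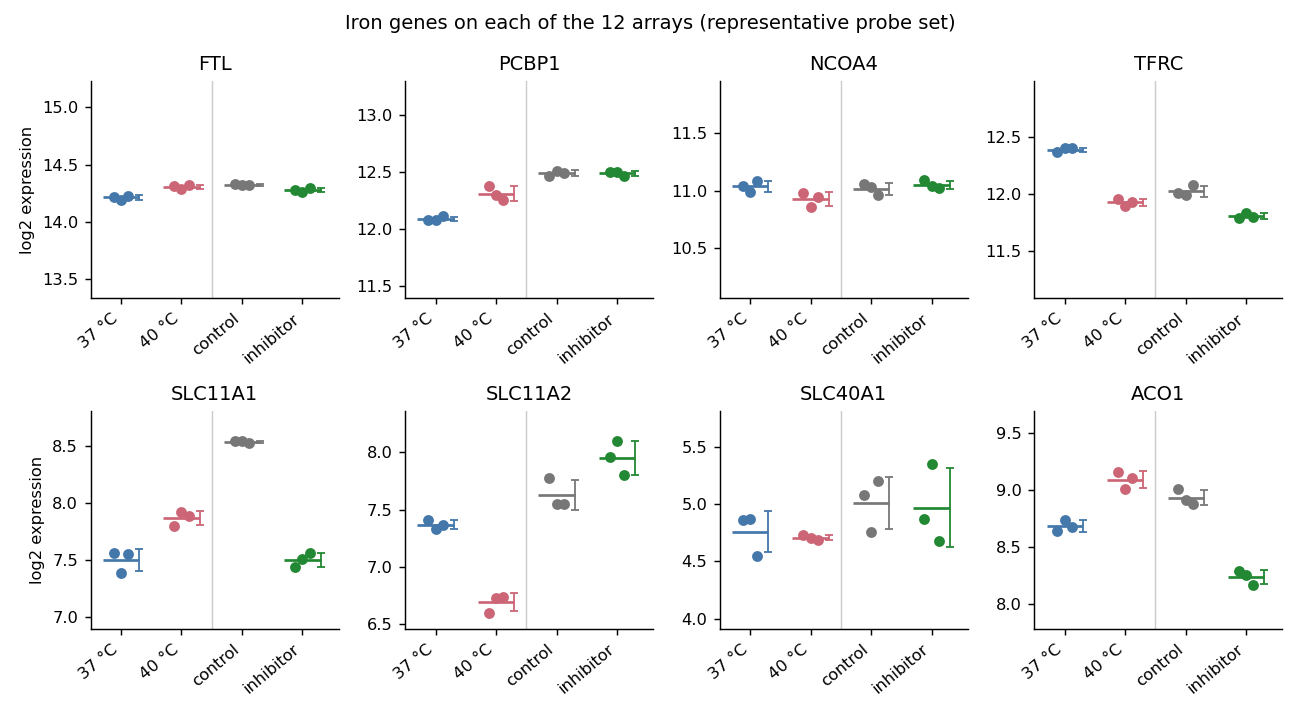
Log2 expression of the 8 iron genes on each array (points), with the group mean (line) and SD (bar, 3 arrays), by the brightest probe set; each panel spans the same log2 range and the grey line parts the 2 experiments. TFRC is highest at 37 °C (12.37 to 12.40), SLC11A1 is highest in the inhibitor controls (8.52 to 8.54), and FTL differs little between groups.

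Uptake genes are taken first. TFRC encodes transferrin receptor 1, the main route for transferrin-bound iron. Its log2 level was 12.37, 12.40 and 12.40 at 37 °C and 11.96, 11.90 and 11.93 at 40 °C. Every array at 40 °C lay below every array at 37 °C. The difference was -0.46 (SE 0.04; limma, adjusted p = 0.000122). In the inhibitor experiment TFRC was 12.01, 11.99 and 12.08 in controls and 11.79, 11.84 and 11.80 with the inhibitor, again without overlap. The difference of -0.22 (SE 0.06; limma, adjusted p = 0.0166) lost its call when control replicate 3 (-0.19, adjusted p = 0.0753) or inhibitor replicate 1 (-0.21, adjusted p = 0.0602) was left out. The mean of the 3 TFRC probe sets gave a wider gap, of -0.37. Over the 4 groups TFRC was lowest with the inhibitor, then at 40 °C, then in the inhibitor controls, and highest at 37 °C, and no neighbours in this order overlapped.

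The other TFRC probe sets were on the same side. Probe set 11715477_at differed by -0.55 (SE 0.04) at 40 °C and by -0.24 (SE 0.06) with the inhibitor, and was called in both. The faintest, 11715478_a_at, differed by -0.09 (SE 0.10) at 40 °C, where it was not called, and by -0.66 (SE 0.08) with the inhibitor, where it was. Its arrays ran from 6.72 to 7.13 at 40 °C and from 6.95 to 7.11 at 37 °C. The order of the 4 groups also varied by probe set. For 11715477_at the 40 °C arrays (11.28 to 11.31) overlapped the controls (11.29 to 11.33). For 11715478_a_at the controls had the highest mean (7.04, against 7.01 at 37 °C).

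SLC11A1 encodes NRAMP1, which carries iron and other metal ions out of the phagosome and is made mainly by macrophages and neutrophils. Its brightest probe set, 11727842_at, read 7.56, 7.39 and 7.55 at 37 °C and 7.80, 7.92 and 7.89 at 40 °C. The difference was 0.37 (SE 0.06; limma, adjusted p = 0.00207), with no overlap. Controls of the inhibitor experiment read 8.54, 8.54 and 8.52, and inhibitor arrays 7.44, 7.51 and 7.56. This was the widest gap of the 8 genes in either comparison, at -1.03 (SE 0.06; limma, adjusted p = 2.3e-05). By this probe set inhibitor arrays overlapped with 37 °C arrays, and each of the other 2 groups stood apart. That overlap crosses the 2 experiments, so it cannot be read as a return to the level at 37 °C.

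SLC11A1 has 6 probe sets, which gave differences of very unequal size. At 40 °C 4 were called higher and none lower. The largest difference was that of 11747774_a_at, which read 6.34, 6.35 and 6.24 at 37 °C and 7.73, 7.95 and 7.75 at 40 °C, a 2.83-fold rise (1.50, SE 0.07). Probe set 11727843_a_at rose by 1.00 (SE 0.06) and 11748920_x_at by 0.74 (SE 0.08). The test made no call for 11761030_x_at, at 0.12 (SE 0.09), or for 11761029_at, at -0.05 (SE 0.06). With the inhibitor 5 of the 6 were called lower. Probe set 11747774_a_at again had the largest difference, from 8.22, 8.14 and 8.23 in controls to 6.57, 6.77 and 6.21, which is 3.20-fold lower. The faintest, 11761029_at, differed by -0.10 (SE 0.08) and was not called. The brightest probe set thus gave a smaller rise at 40 °C than 3 of the other 5, and the mean of all 6 rose by 0.61. The order of the 4 groups varied as well. For 11727843_a_at the 40 °C arrays (7.59 to 7.75) overlapped the controls (7.66 to 7.75). For 11748920_x_at the 40 °C arrays (6.69 to 6.79) lay above the controls (6.52 to 6.65).

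**Figure D2:**
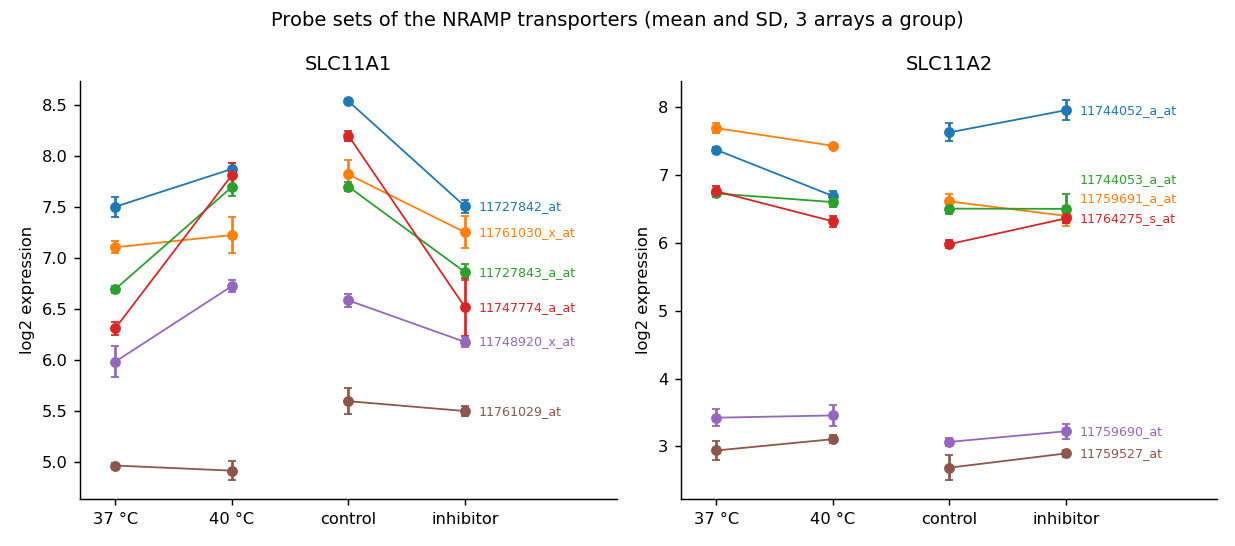
Mean log2 expression and SD (3 arrays a group) of each probe set of SLC11A1 and SLC11A2, with lines joining the 2 groups of 1 experiment. For SLC11A1, 11747774_a_at moves from 6.31 to 7.81 between temperatures and from 8.20 to 6.52 between control and inhibitor, while 11761029_at differs by -0.05 and -0.10; for SLC11A2 the 2 faintest probe sets were under the filter.

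SLC11A2 encodes DMT1, which carries iron from endosomes to the cytosol after transferrin uptake. Its brightest probe set read 7.41, 7.33 and 7.37 at 37 °C and 6.60, 6.73 and 6.74 at 40 °C. The 2 groups were far apart, and the difference of -0.68 (SE 0.05; limma, adjusted p = 6.2e-05) was the largest of the 8 genes between temperatures by the brightest probe set. Averaged over all 6 SLC11A2 probe sets, 2 of them under the filter, it was -0.22 (adjusted p = 0.00249), smaller than for SLC11A1, TFRC and ACO1 by the same mean. Controls of the inhibitor experiment read 7.78, 7.55 and 7.55, and inhibitor arrays 7.96, 8.10 and 7.80. The difference of 0.33 (SE 0.10; limma, adjusted p = 0.0314) rested on few arrays. It was not called without control replicate 2 (0.29) or 3 (0.29), nor without inhibitor replicate 1 (0.32) or 2 (0.25), with adjusted p from 0.0679 to 0.106 in these 4 fits. Averaging its probe sets gave 0.14, also without a call (adjusted p = 0.123). By the brightest probe set the groups in rising order were 40 °C, 37 °C, control and inhibitor, none overlapping its neighbour. This order crosses the 2 experiments, and the other SLC11A2 probe sets past the filter all had their highest group mean at 37 °C.

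Of the 6 SLC11A2 probe sets, 4 passed the filter. Between temperatures 3 of these were called lower: besides the brightest, 11764275_s_at with a difference of -0.44 (SE 0.06) and 11759691_a_at with a difference of -0.26 (SE 0.05). In the inhibitor experiment 2 were called higher, the brightest and 11764275_s_at (0.38, SE 0.07). Probe set 11759691_a_at differed the other way there (-0.21, SE 0.10) and was not called. It also separated the experiments, at 7.42 to 7.77 on the temperature arrays and 6.23 to 6.73 on the others.

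Export came next, with signals near the filter. SLC40A1 encodes ferroportin, the only known iron exporter of vertebrate cells. Its brightest probe set lay just above the filter, at 4.55 to 4.87 at 37 °C, 4.69 to 4.73 at 40 °C, 4.76 to 5.20 in inhibitor controls and 4.68 to 5.35 with the inhibitor. All 4 groups overlapped their neighbours in order. The differences were -0.05 (SE 0.09) and -0.05 (SE 0.18), and neither was called, although without replicate 3 at 37 °C the first was -0.16 with an adjusted p of 0.0496. The second probe set, 11715789_a_at, was called lower with the inhibitor (-0.47, SE 0.12; limma, adjusted p = 0.0164), from 4.92, 4.76 and 4.91 to 4.57, 4.49 and 4.13. At such signal a change of ferroportin mRNA may not be detectable.

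Storage transcripts were near the top of the array's scale. FTL, whose light chains form the ferritin shell together with heavy chains, read 14.22, 14.19 and 14.23 at 37 °C and 14.31, 14.29 and 14.32 at 40 °C by its brightest probe set. The groups did not overlap, and the difference of 0.09 (SE 0.04; limma, adjusted p = 0.116) was not called. With the inhibitor it read 14.28, 14.26 and 14.30, below the controls at 14.33, 14.32 and 14.32, and the difference of -0.04 (SE 0.05; limma, adjusted p = 0.524) was not called. By trend and robust eBayes the difference between temperatures was called (adjusted p = 0.00042). The highest value of any probe set was 14.28 to 14.41 over the 12 arrays, and even the dimmest FTL probe set lay within 0.29 to 0.72 of it, so little room was left above these readings. All 8 FTL probe sets read higher at 40 °C, by 0.09 to 0.20, and 4 of them were called. The 4 called were 11757327_x_at (0.15), 11755280_x_at (0.18), 11757787_x_at (0.20) and 11758182_x_at (0.18), each with an SE of 0.04 to 0.05. The mean of the 8 probe sets was called (0.14, adjusted p = 0.0151). With the inhibitor all 8 read lower, by 0.03 to 0.07 on the log2 scale, and none was called. By suffix, 4 FTL probe sets are of the _s_at kind and 4 of the _x_at kind, which can read several transcripts, and RefSeq lists 20 FTL pseudogenes; a share of the signal from them was not tested.

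PCBP1 and NCOA4 act on ferritin. PCBP1 is a chaperone that hands iron to ferritin, and it also binds RNA. It read 12.08, 12.08 and 12.11 at 37 °C and 12.38, 12.30 and 12.25 at 40 °C. All 3 warm arrays were higher, and the difference of 0.22 (SE 0.05; limma, adjusted p = 0.00832) was called. In the inhibitor experiment both groups averaged 12.49, and the difference was 0.00 (SE 0.05). Its only probe set is of the _x_at kind, which may also read related transcripts. Its paralog PCBP2 was called higher at 40 °C (0.14, SE 0.05), but the call was lost without any 1 of 5 of the 6 arrays, and the mean of the 8 PCBP2 probe sets gave -0.01.

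NCOA4 is the receptor that brings ferritin to autophagosomes for breakdown. Its brightest probe set stayed between 10.86 and 11.09 on all 12 arrays, with differences of -0.11 (SE 0.05) and 0.03 (SE 0.06) that were not called. By trend and robust eBayes the first was called (adjusted p = 0.0202). A fainter one, 11758053_s_at, read 6.91, 7.06 and 6.98 in controls and 6.50, 6.51 and 6.26 with the inhibitor, and was called lower (-0.56, SE 0.09; limma, adjusted p = 0.00195). The mean of both probe sets was then called lower as well (-0.26), so the result for NCOA4 depends on the probe set.

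ACO1 is the regulator. It encodes cytosolic aconitase, which becomes iron regulatory protein 1 when it lacks its iron-sulphur cluster. It read 8.64, 8.74 and 8.68 at 37 °C and 9.16, 9.01 and 9.10 at 40 °C, without overlap (difference 0.40, SE 0.05; limma, adjusted p = 0.000756). Controls of the inhibitor experiment read 9.01, 8.91 and 8.88, and inhibitor arrays 8.29, 8.26 and 8.17, the lowest of the 4 groups (difference -0.69, SE 0.06; limma, adjusted p = 0.00018). The controls overlapped with the 40 °C arrays. A second probe set, 11743758_a_at, was called in the same directions, by 0.54 (SE 0.06) and -0.83 (SE 0.08). It ordered the groups differently, with controls at 8.23 to 8.37 well above the 40 °C arrays at 7.32 to 7.49. The third lay under the filter, and with it included the mean of the probe sets differed by -0.31 with the inhibitor.

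**Figure D3:**
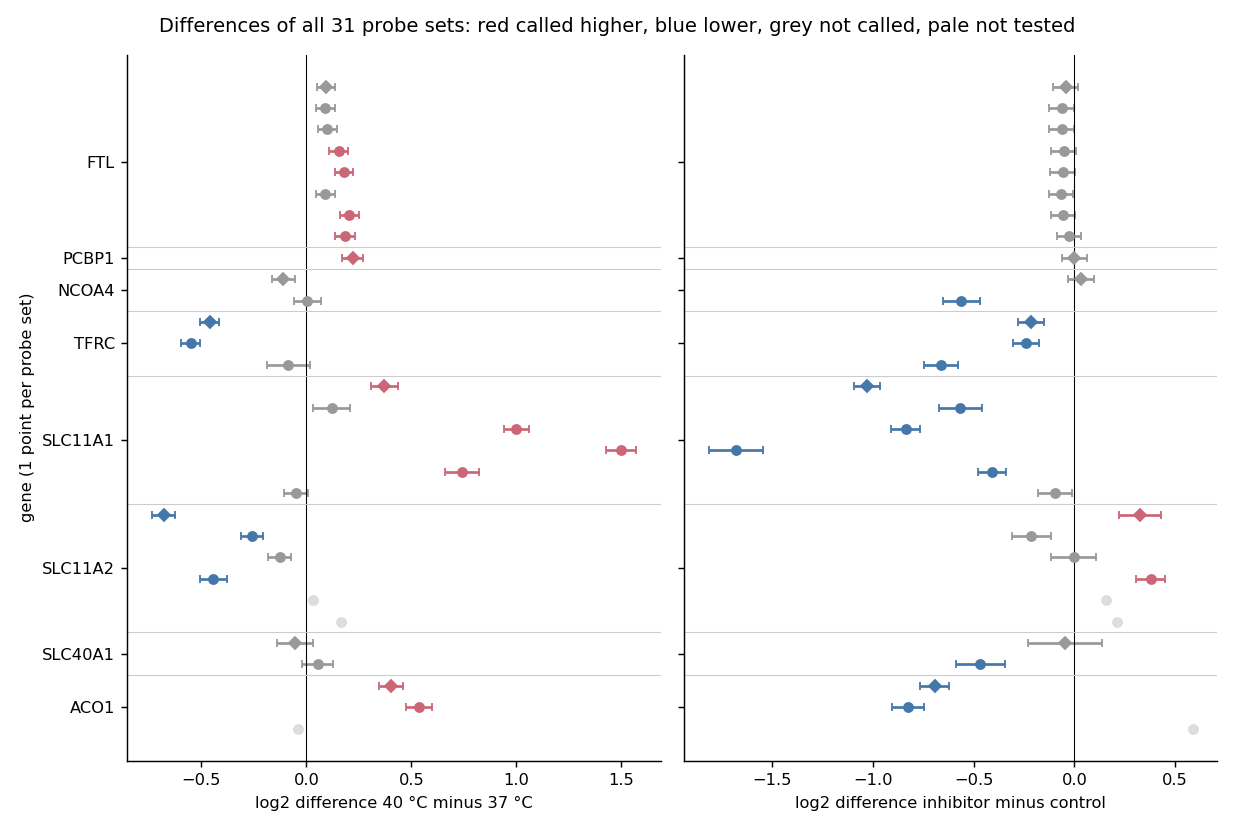
Log2 difference of each of the 31 probe sets at 40 °C against 37 °C (left) and inhibitor against control (right), with the SE of the fit; diamonds mark the brightest probe set of a gene and colours the call. SLC11A1 and ACO1 lie to the right of 0 on the left side and to the left of 0 on the right side for their called probe sets, while TFRC lies left of 0 in both.

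By probe set, 28 of the 31 passed the filter. Between temperatures 11 were called higher and 5 lower, where the shares over all 34507 probe sets tested were 19.8% and 17.5%. With the inhibitor 2 were called higher and 12 lower, against 21.3% and 21.8%. No gene had probe sets called in opposite directions within 1 comparison. Probe sets of 1 gene share its RNA and are not independent.

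The 3 genes with the nearest profile were sought for the 3 genes whose group means spanned the widest range, by the root-mean-square difference in centred log2 level over the 12 arrays. The nearest to SLC11A1 were EIF4EBP1 (0.08), MPC2 (0.08) and UHRF2 (0.11). For SLC11A2 they were NUCB2 (0.11), CCNL1 (0.11) and PRR16 (0.14), and for ACO1 they were ERG28 (0.07), FAHD2A (0.10) and ARL3 (0.10). The 12 arrays form 4 groups, so these distances reflect mainly the group means.

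Of 87 other genes on lists of iron handling, 76 were tested. At 40 °C 26 were called higher and 12 lower, where 21.6% and 17.7% of all genes tested were, and the median difference was 0.06 against 0.01 over all genes tested. The counts per list that follow are small and are given as descriptions. Several values change in size when a gene's probe sets are averaged. For called genes that mean is given where it passed the filter and differs by over 1.5 times. Among uptake genes, STEAP4 and STEAP1, of a family that reduces ferric iron, differed by -1.50 (SE 0.08; mean of probe sets -0.996) and -0.96 (SE 0.07; mean -0.50), while CD163, the receptor for haptoglobin-bound haemoglobin, was higher by 0.97 (SE 0.07). Of the 14 tested uptake genes, members included, 6 rose and 4 fell. The list of haem genes had 4 higher and 2 lower of 17. SLC48A1, which exports haem from the phagolysosome, rose by 0.71 (SE 0.07; mean of probe sets 0.17, adjusted p = 0.0481), and HMOX1, which breaks haem down and frees its iron, by 0.52 (SE 0.05). FECH, which inserts iron into haem, differed by -0.40 (SE 0.04).

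Regulators had 3 higher and none lower of 9 at 40 °C: ACO1, EPAS1, the hypoxia-inducible factor whose mRNA carries an iron-responsive element (0.61, SE 0.05; mean of probe sets 0.26), and SMAD4, a mediator of BMP signals to hepcidin (0.27, SE 0.07). The SMAD4 call was lost by the mean of its probe sets (0.08, adjusted p = 0.133) and with the spike covariate described at the end (adjusted p = 0.208). FBXL5, which marks iron regulatory proteins for destruction when iron is ample, was at 0.08 (SE 0.05), without a call. Of 4 tested export genes, HMOX1 rose and ATP7A, a copper transporter, fell (-0.33, SE 0.06; -0.51 with the spike covariate). HAMP, which encodes hepcidin, differed by 0.06 (SE 0.06) and was not called, and CP, the ferroxidase ceruloplasmin, lay under the filter. The ferritin and chaperone list had 4 higher and 1 lower of 10, the latter TAX1BP1, an autophagy receptor (-0.19, SE 0.04). HERC2, a ligase that targets NCOA4, differed by 0.18 (SE 0.06; limma, adjusted p = 0.0413; mean of probe sets 0.025), a call lost without any 1 of 5 of the 6 arrays. Mitochondrial iron and iron-sulphur genes had 9 higher and 3 lower of 21, with the iron importer SLC25A37 up by 0.74 (SE 0.08; mean of probe sets 0.45), CISD2 by 0.47 (SE 0.05; mean 0.28) and the cysteine desulphurase NFS1 by 0.44 (SE 0.06). Of 12 genes around NRF2, 4 rose and 3 fell, with NQO1 at 0.66 (SE 0.05) and the cystine carrier SLC7A11 at -0.64 (SE 0.06).

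With the inhibitor 18 of the 76 were called higher and 15 lower, where 25.7% and 19.6% of all genes tested were, and the median was 0.05 against 0.09. Genes around NRF2 rose in 7 of 12 and fell in none, led by SRXN1 (1.37, SE 0.06), NQO1 (1.33, SE 0.07) and SLC7A11 (0.81, SE 0.06), but HMOX1 differed by 0.03 (SE 0.06). Regulators fell in 4 of 9 and rose in none: EPAS1 (-1.63, SE 0.10; mean of probe sets -0.77), ACO1, HIF1A (-0.29, SE 0.06; mean -0.66) and FBXL5 (-0.22, SE 0.05). The FBXL5 call was lost without control replicate 3 (adjusted p = 0.0607). Haem genes had 2 higher and 5 lower of 17, but the call of SLC48A1, 1 of the 2 higher (0.21, SE 0.07; limma, adjusted p = 0.0397), was lost without any 1 of the 6 arrays. The mean of the SLC48A1 probe sets was not called either (0.12, limma, adjusted p = 0.202). ABCG2, a porphyrin exporter, was lower (-1.30, SE 0.07; mean of probe sets -0.69), as was BLVRB, a biliverdin reductase (-1.22, SE 0.08), and UROS, an enzyme of haem synthesis, was higher (0.55, SE 0.07). Uptake genes had 3 higher and 4 lower of 14, with SLC39A8, a zinc and iron carrier, at 0.90 (SE 0.09; mean of probe sets 0.32) and STEAP4 at -0.79 (SE 0.06; mean -0.37).

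Mitochondrial iron genes had 5 higher and 3 lower of 21 with the inhibitor. FDX1, a ferredoxin, was lower (-1.55, SE 0.06), and ISCA1 (0.53, SE 0.06; mean of probe sets 0.25) and the iron importer SLC25A28 (0.50, SE 0.08) were higher. The ferritin and chaperone list had 2 higher and 2 lower of 10: HERC2 (0.43, SE 0.10) and SCARA5, a ferritin receptor (0.39, SE 0.11), against PCBP4 (-0.34, SE 0.10) and TAX1BP1 (-0.15, SE 0.05; mean of probe sets -0.27). The SCARA5 call was lost without control replicate 1 or 3 or inhibitor replicate 1, and the PCBP4 call without any 1 of the 3 controls or inhibitor replicate 1. The TAX1BP1 call was lost without any 1 of the 6 arrays. None of the 4 tested export genes was called (limma), and CD163 and HAMP differed by -0.09 (SE 0.11) and 0.08 (SE 0.13). On the export list the count at an unadjusted p under 0.05 was 0.

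**Figure D4:**
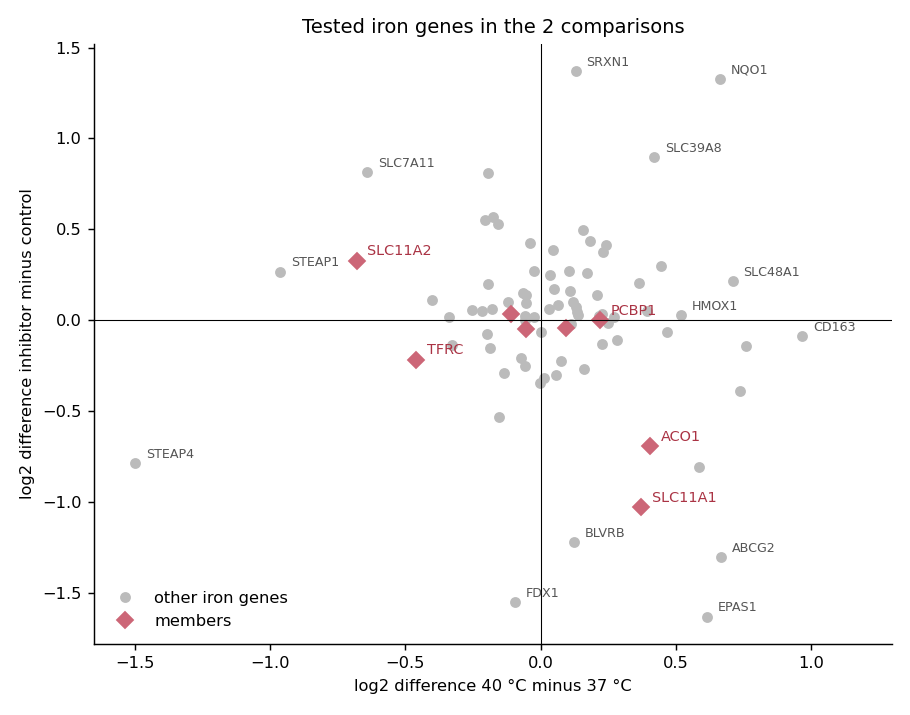
Log2 difference at 40 °C against 37 °C (horizontal) and inhibitor against control (vertical) of the tested iron genes, members as diamonds and other listed genes as grey points, with named genes labelled. SLC11A1 and ACO1 lie at the lower right with EPAS1 and ABCG2, and SLC11A2 lies at the upper left.

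Other measures moved with the inhibitor groups. Of 10 tested macrophage markers 6 were called lower and 1 higher, where 19.6% and 25.7% of all genes tested were. LYZ was lower by the most (10.32 in controls against 7.98). The summed linear signal of the 11 markers on the array was 14120 to 14650 in controls against 9554 to 9779 with the inhibitor. NKG7, a killer cell gene, was the 1 lymphocyte marker of 4 tested that was called, and it was higher (group means 6.49 and 7.46). The summed linear signal of all 6 lymphocyte markers on the array, NKG7 included, was 231.8 to 253.9 in controls and 329.4 to 354.5 with the inhibitor. The markers other than NKG7 differed by -0.08 to 0.25, without a call for those tested. The sum thus cannot be read as a change of the lymphocyte markers together. In bulk RNA, fewer cells of a type and less RNA per cell cannot be told apart. The poly-A spikes, bacterial RNAs added before labelling, averaged 7.22 ± 0.37 in controls and 5.87 ± 0.32 with the inhibitor (SD, n = 3 each). The gap between the 3′ and 5′ probe sets of GAPDH, a sign of RNA integrity, was 1.04 ± 0.04 and 0.72 ± 0.09, and that of ACTB 2.44 ± 0.09 and 2.70 ± 0.16. Spike ranges did not overlap between these groups (7.0 to 7.6 in controls, 5.5 to 6.1 with the inhibitor). A fit with the spike level as a covariate can therefore hardly separate it from the inhibitor. In that fit SLC11A1 was called lower among genes (-1.10, limma, adjusted p = 0.0435), but no member probe set was called in the fit over probe sets. ACO1 (-0.64, adjusted p = 0.15), TFRC (-0.26, adjusted p = 0.476) and SLC11A2 (0.42, adjusted p = 0.493) then kept their sign and were not called. The part of the macrophage markers and of RNA integrity in these results was not tested.

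Between temperatures the same measures lay closer. Spikes read 7.85 to 7.90 at 37 °C and 7.92 to 7.98 at 40 °C, and GAPDH gaps 0.36 to 0.40 and 0.36 to 0.56. Macrophage markers were called higher in 6 of 10 and lower in 3, where 21.6% and 17.7% of all genes tested were. Their summed signals were 10280 to 10500 against 10360 to 11320. The spike ranges did not overlap here either, so the covariate fit can hardly separate spike level from temperature. In that fit SLC11A1 (0.52), SLC11A2 (-0.56) and TFRC (-0.48) were called. ACO1 (0.34, limma, adjusted p = 0.0683) and PCBP1 (0.15, limma, adjusted p = 0.282) were not.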

How the data were processed

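Per the labels' protocols, RNA was extracted with Trizol and run on Affymetrix PrimeView arrays by a service centre. The deposited table holds log2 values of 49395 probe sets on 12 arrays, a scale taken from the numbers themselves. How the authors corrected background and normalized, and with what software, is not given in the sources used. Names came from the platform's gene annotation. Genes were represented by their brightest probe set of 1 symbol, and the 13909 of 18132 whose mean reached the 30th percentile of probe sets (log2 4.48) were tested. Each experiment was fitted alone with limma 3.58.1 in R 4.3.3 (lmFit, eBayes, two-sided, no block), Benjamini-Hochberg adjusted over all genes, and again over all 34507 probe sets past the filter. Residual degrees of freedom were 4. An exact permutation test of 3 arrays against 3 cannot go below p = 0.1, so none was run. The members and lists were chosen with earlier results of these data known. Named genes were all members, up to 3 called genes of each iron list by p, and a short list (NQO1, HMOX1, FBXL5, PCBP2, CD163, HAMP, CP). The fit was tested on simulated data. Folds are computed from mean log2 differences. Promoters, 9 of 10 members matched by symbol, come from RefSeq (GRCh38.p14). Figures used Python 3.11.15 and matplotlib 3.10.9. Alternatives are given in the closing section.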

Additional observations from a re-analysis of the deposited data

How the results depend on the processing

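Alternatives were leaving the filter out or raising it to the 50th percentile, a joint fit of 12 arrays, a block for the replicate number, averaged probe sets, quantile normalization, median centring, trend and robust eBayes, array weights, the poly-A spike level as a covariate, and leaving out each array. For members, 121 of 127 alternative values between temperatures and 114 of 127 with the inhibitor stayed on the same side of the threshold without reversing a call; SLC40A1 had no value under the higher filter. NCOA4 with the inhibitor turned and was called at -0.26 by the mean of its probe sets. Values that were not called changed sign as well: SLC40A1 in 4 alternatives that leave out an array, reaching 0.0017 between temperatures and 0.097 with the inhibitor, and FTL with the inhibitor under quantile normalization (0.0087); PCBP1 with the inhibitor, reported at 0.00, fell on either side of 0. By that mean PCBP2 also turned in both comparisons (-0.0075 and -0.38), as did ISCA1 between temperatures (0.036) and SMAD4 with the inhibitor (-0.22). Spike levels did not overlap between the groups of either comparison, so the spike covariate can hardly be separated from the group. With it, 1 member was called higher between temperatures in place of 3, 12 other iron genes higher in place of 26, and 9 member probe sets in place of 16. In the inhibitor experiment it left 0 members higher and 1 lower, 2 other iron genes higher and 3 lower, and 0 member probe sets in place of 14. The only member called higher with the inhibitor, SLC11A2, was lost with the mean of probe sets (0 members higher) and with the replicate block (0 members higher), and leaving out single arrays gave 0 to 1. Same-numbered arrays correlated in their deviations from group means at -0.13, -0.10 and 0.23 between temperatures and -0.19, -0.60 and -0.15 in the inhibitor experiment. These few values show no steady pairing by number. Arrays of unlike number reached 0.33 between temperatures and 0.46 in the inhibitor experiment, and a pairing among them was not tested. Under the block TFRC with the inhibitor was not called either (-0.22, limma, adjusted p = 0.0879). The cause of these changes was not tested. FTL readings at the top of the scale and SLC40A1 readings near the filter limit what these arrays can show.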
